A study of Homo sapiens with 10 samples.

Results

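Integrins, laminins and the proteins that link a basement membrane to cells were examined as 32 genes of the 12540 in the table. Membership was set by gene symbol. It took ITGA followed by a number or by V, E, L, M or X, and the integrin β chain genes. It also took the laminin α, β and γ chain genes, and NID1, NID2, HSPG2, AGRN and DAG1. ITGA2B, whose symbol adds a letter to a number, was not covered and is given apart below. Another 8 human genes that fit these names (ITGA8, ITGA9, ITGAL, ITGAM, ITGAX, ITGB7, LAMB4 and LAMC3) were not analysed here, and all 32 passed the filter on low counts. RNA was measured by sequencing in SRA01-04, a human lens epithelial cell line that carries a viral T antigen. The 5 libraries EV1 to EV5 came from cells transfected with the empty vector, and the 5 libraries OE1 to OE5 from cells transfected with a plasmid for RORA, which encodes the nuclear receptor RORα. Both groups received selenite at 10 µM for 24 h, beginning 48 h after transfection, so the values hold for selenite-treated, transfected cells and no group lacked either. No label ties a replicate to a culture of its own, so p-values measure only the spread between these libraries.

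Integrins are cell surface receptors made of an α and a β chain, and the pairing sets what they bind: laminin, collagen, or proteins with an RGD motif such as fibronectin. Laminins are trimers of an α, a β and a γ chain that assemble into the sheet at the base of an epithelium. Nidogens, perlecan (HSPG2) and agrin tie this sheet to the collagen IV network, and dystroglycan (DAG1) holds it to the cell surface. In the lens the epithelium secretes a thick basement membrane, the capsule, and stays attached to it through integrins.

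RORA itself rose 2.74-fold, from 14.99 ± 2.29 to 41.3 ± 2.21 CPM (mean ± SD of 5 libraries; CPM is the read count scaled to library size; adjusted p = 4.35e-20 by edgeR), and an exact two-sided permutation test gave p = 0.00794, the smallest that 5 against 5 libraries allow. Library totals ran from 17475342 to 21956761 counts, and a count of 0 allowed up to 0.137 to 0.171 CPM, which covers counting error only. Of 19 lens epithelial markers, 10 were analysed, and FOXE3, CRYAA and PROX1 were not analysed here. Their sum ran from 1094 to 1152 CPM with the empty vector and from 977 to 994 CPM with RORA. Of the 10, CRYAB (1.43 to 0.370 CPM), DKK3, BFSP1 and EPHA2 fell, CDH2 rose, and 5 did not pass, among them PAX6 at 19.6 and 20.9 CPM. The 9 fibroblast markers analysed, of 12 listed, summed to between 3324 and 3573 CPM with the empty vector and between 1201 and 1327 CPM with RORA, and every one of them fell. The summed level of 5 epithelial markers, of 13 listed, ran from 1149 to 1295 CPM and from 540.0 to 564 CPM. Of the 5, KRT8 (904 to 265 CPM), KRT18 (242 to 69.6 CPM) and ESRP2 (with overlapping groups) fell. CLDN1 rose from 51.0 to 215 CPM, and CLDN4 did not pass. The sum of 2 endothelial markers, of 8 listed, ran from 17.2 to 19.8 and from 9.96 to 12.3 CPM. That of 2 leukocyte markers, of 10 listed, ran from 5.21 to 7.37 and from 4.84 to 6.34 CPM. The part of these markers in the results below was not tested, and in bulk RNA fewer cells of a type and less RNA per cell cannot be told apart.

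With RORA overexpressed, 12 of the 32 genes rose and 16 fell, while ITGA1, ITGA7, LAMA2 and LAMA5 did not pass (Benjamini-Hochberg adjusted p of 0.05, edgeR quasi-likelihood test across 12520 genes). Over all genes 28.6% rose and 27.5% fell, together 56.1%. The change was at least 2-fold for 7 of the 32, against 5.02% of all genes: LAMB3, ITGB2 and LAMA3 rose, and ITGA11, ITGB6, ITGA10 and LAMA4 fell. The groups did not overlap for 26 of the 32, against 39.6% of all genes. Among these 11 were higher and 15 lower with RORA, against 20.8% and 18.9% of all genes. The median log2 fold change was -0.21 beside 0.00 over all genes, and the median size of change 0.49 beside 0.18. The fewest reads over all 10 libraries were the 219 of LAMA2, the 315 of ITGA7 and the 461 of ITGB6. EV4 was the highest empty vector library for 14 of the 32 genes, and leaving it out changed no call among them.

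**Figure D1:**
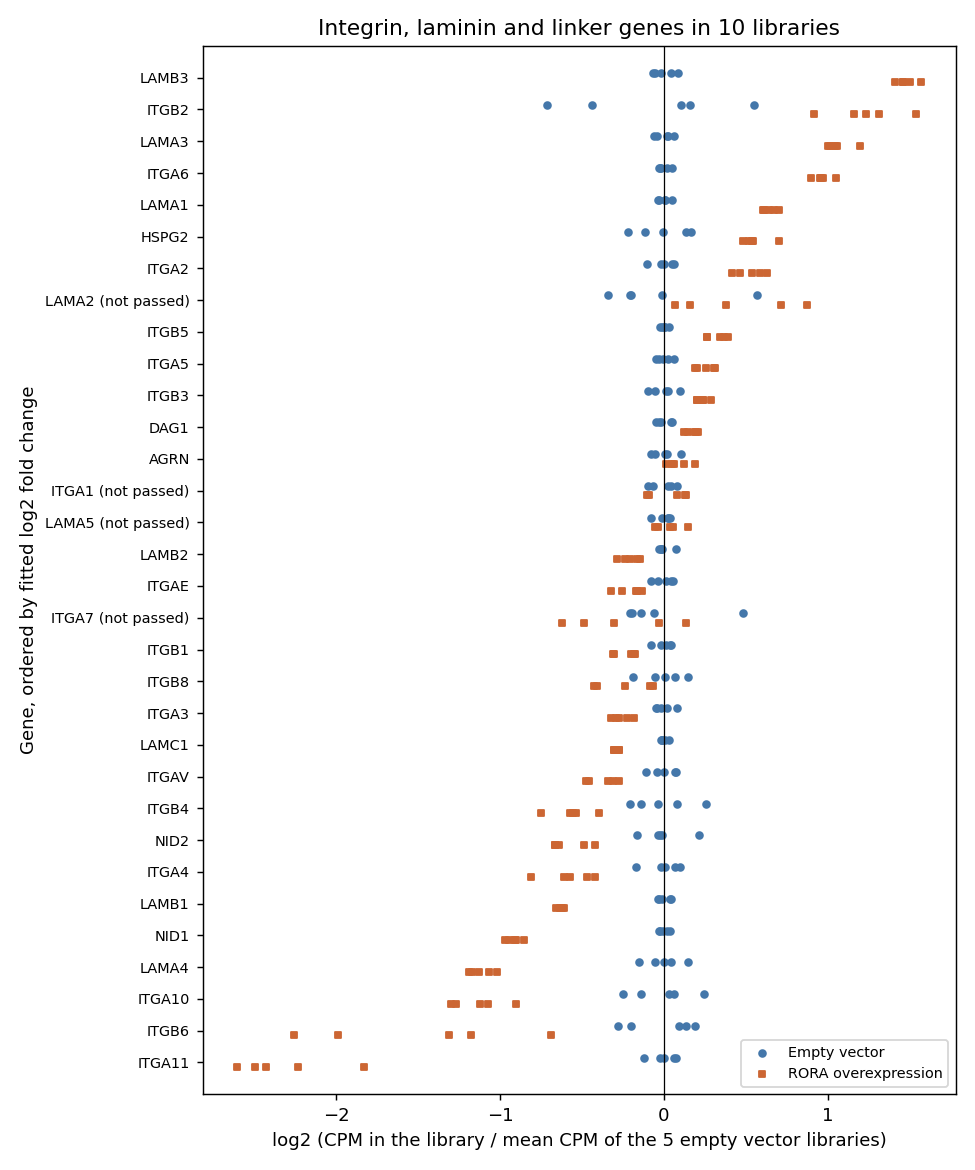
Each point is a library, with the log2 ratio of its CPM to the mean of the 5 empty vector libraries on the horizontal axis and the 32 genes on the vertical axis, ordered by fitted log2 fold change. LAMB3 stands highest with no overlap, ITGA11 stands lowest, and the 4 genes marked as not passed have overlapping groups.

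The ligands come first, and among the laminin α and β chains the largest rises were those of LAMA3 and LAMB3. These genes encode chains of the laminin that anchors stratified epithelia to their basement membrane. LAMB3 (ENSG00000196878, chr1:209614870-209652466, minus strand, GRCh38), the β chain, stood at 474, 458, 461, 508 and 494 CPM in EV1 to EV5 and rose to 1318, 1273, 1423, 1316 and 1356 CPM in OE1 to OE5. Every overexpression library was far above every empty vector library (2.79-fold, log2 1.48, standard error 0.0307, edgeR adjusted p = 6.18e-33). LAMA3 (ENSG00000053747, chr18:23689443-23956222, plus strand), the α chain, went from 14.9, 14.1, 14.9, 15.3 and 14.3 CPM to 33.7, 30.6, 30.3, 29.7 and 29.5 CPM. The groups lay well apart, with OE1 above the other 4 overexpression libraries (2.09-fold, log2 1.07, standard error 0.0641, edgeR adjusted p = 1.62e-17).

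The other laminin α chains moved apart from each other. LAMA1, the α chain of the laminin made early in development, stood at 79.0, 83.7, 79.1, 81.1 and 81.4 CPM with the empty vector and at 126, 129, 132, 124 and 123 CPM with RORA. No library of either group reached into the other (1.57-fold, log2 0.65, edgeR adjusted p = 4.59e-18). LAMA4, the α chain typical of vessels, muscle and other mesenchymal tissue, fell from 32.6, 35.0, 31.7, 30.6 and 28.6 CPM to 15.1, 15.6, 14.1, 14.5 and 13.9 CPM. Its groups did not overlap either (2.16-fold lower, log2 -1.11, edgeR adjusted p = 1.51e-17). LAMA5, the α chain most widespread in adult epithelia, stood at 121, 127, 131, 131 and 131 CPM and at 123, 125, 142, 133 and 131 CPM. These groups overlapped (log2 fold change 0.03, standard error 0.0385, edgeR adjusted p = 0.511). LAMA2, the α chain of muscle and nerve, was the least abundant of these chains, at 0.941 ± 0.263 and 1.30 ± 0.319 CPM (edgeR adjusted p = 0.146).

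The laminin β and γ chains that are widespread outside stratified epithelia fell. LAMB1, the β chain shared by many laminins, went from 183, 177, 183, 175 and 174 CPM to 117, 113, 115, 116 and 115 CPM (1.55-fold lower, log2 -0.63, edgeR adjusted p = 4.43e-19), with no overlap. LAMC1, the γ chain of most laminins, stood at 609.9, 622, 613, 633 and 614 CPM and at 511, 505, 511, 502 and 501 CPM. Its fall was small beside those above, and the groups did not overlap (1.22-fold lower, log2 -0.29, edgeR adjusted p = 2.65e-12). LAMB2, the β chain of kidney and muscle laminins, fell from 242 ± 7.25 to 209 ± 8.28 CPM (1.15-fold lower, adjusted p = 1.35e-06 by edgeR).

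To compare levels between genes, CPM was divided by the length of each gene's merged exons in kilobases. On this scale LAMC1 was at 73.6 ± 1.11 CPM per kilobase with the empty vector and at 60.2 ± 0.590 with RORA. Among β chains LAMB3 was highest in both groups, with a share of 64.1% ± 0.937 and then 86.5% ± 0.435 of the sum of the 3. Among α chains the order with the empty vector was LAMA5, LAMA1, LAMA4, LAMA3 and LAMA2, and with RORA LAMA3 (2.09 ± 0.115 CPM per kilobase) stood above LAMA4 (1.27 ± 0.0627), the reverse of 1.00 ± 0.0344 and 2.74 ± 0.207 before. Per kilobase, LAMB3 exceeded LAMA3 102-fold ± 4.41 with the empty vector and 137-fold ± 10.0 with RORA. With the longest coding transcript as the length the ratio to LAMA3 was 80.7 and 108. The 5 α chains summed to 17.9 ± 0.329 and 20.6 ± 0.548 CPM per kilobase, and the 3 β chains to 159 ± 5.04 and 330.0 ± 12.7.

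**Figure D2:**
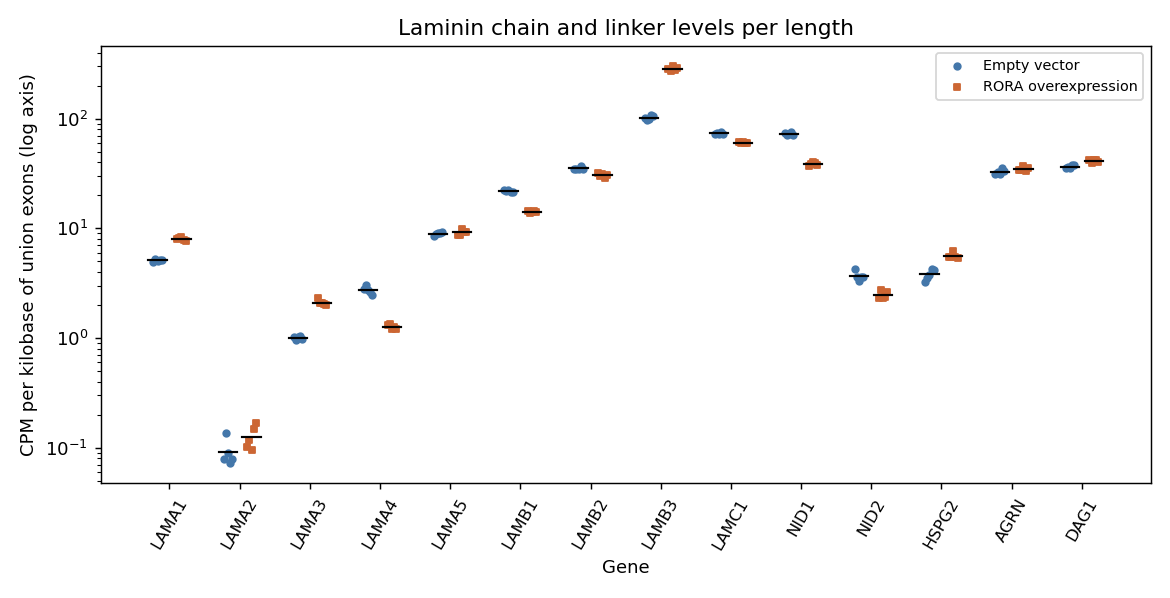
CPM per kilobase of merged exons, on a log axis, for 9 laminin chain genes and 5 linker genes, with a point per library and a bar at the mean of each group of 5. LAMB3 rises from 102 to 285, LAMA3 passes LAMA4 with RORA, and NID1 falls from 72.9 to 38.7.

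Promoter sequences are shown for 5 genes that changed, picked after their values were seen to cover both directions and laminin chains, integrins and a linker. They come from RefSeq's table of starts (GRCh38.p14), which held 25 of the 32 genes. Each window runs from 250 bases before the start to 50 after it, on the gene's own strand. Capitals mark matches, on either strand, to 3 motifs that do not overlap here: AGGTCA, the core of ROR response elements, TGANTCA, the AP-1 motif, and TATAAA.
LAMA3: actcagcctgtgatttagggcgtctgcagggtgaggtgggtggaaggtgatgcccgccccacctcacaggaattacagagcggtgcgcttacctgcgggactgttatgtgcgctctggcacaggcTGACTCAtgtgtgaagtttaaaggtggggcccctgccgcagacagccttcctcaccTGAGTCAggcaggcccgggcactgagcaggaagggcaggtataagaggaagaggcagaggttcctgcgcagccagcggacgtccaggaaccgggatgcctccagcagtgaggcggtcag
LAMB3: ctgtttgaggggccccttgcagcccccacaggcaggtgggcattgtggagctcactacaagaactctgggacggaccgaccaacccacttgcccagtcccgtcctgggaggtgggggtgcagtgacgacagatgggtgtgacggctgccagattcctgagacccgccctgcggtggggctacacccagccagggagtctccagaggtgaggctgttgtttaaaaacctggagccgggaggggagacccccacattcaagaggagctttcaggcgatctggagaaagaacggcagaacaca
ITGA6: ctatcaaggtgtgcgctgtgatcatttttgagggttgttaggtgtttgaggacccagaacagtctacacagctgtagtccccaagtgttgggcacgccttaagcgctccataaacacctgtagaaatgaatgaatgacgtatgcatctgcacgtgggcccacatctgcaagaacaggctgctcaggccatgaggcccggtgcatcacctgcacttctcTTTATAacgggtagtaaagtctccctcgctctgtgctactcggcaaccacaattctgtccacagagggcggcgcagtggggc
ITGA11: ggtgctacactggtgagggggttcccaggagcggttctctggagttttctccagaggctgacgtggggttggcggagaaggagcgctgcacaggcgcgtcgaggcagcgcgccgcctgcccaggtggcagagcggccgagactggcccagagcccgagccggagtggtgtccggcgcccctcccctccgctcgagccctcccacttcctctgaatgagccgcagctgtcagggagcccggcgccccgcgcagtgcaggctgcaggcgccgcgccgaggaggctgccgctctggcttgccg
NID1: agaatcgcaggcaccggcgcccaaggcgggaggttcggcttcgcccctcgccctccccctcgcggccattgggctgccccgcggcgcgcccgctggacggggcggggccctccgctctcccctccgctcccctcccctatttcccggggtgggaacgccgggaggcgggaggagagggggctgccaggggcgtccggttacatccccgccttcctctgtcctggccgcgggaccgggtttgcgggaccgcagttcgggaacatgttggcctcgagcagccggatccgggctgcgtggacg

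The LAMA3 window lay at chr18:23872770-23873069 on the plus strand and held 2 AP-1 motifs, beginning 125 and 69 bases before the start. That start is 183577 bases inside the outermost LAMA3 start in GENCODE 29, so it belongs to a transcript that begins within the gene, and gene-level counts do not separate transcripts. The LAMB3 window (chr1:209652376-209652675, minus strand) held none of the 3 motifs, nor did those of ITGA11 (chr15:68432114-68432413, minus strand) and NID1 (chr1:236065041-236065340, minus strand). The ITGA6 window (chr2:172427086-172427385, plus strand) held a reverse-strand TATAAA beginning 32 bases before the start. Among the 25 windows the AP-1 motif occurred in 2, LAMA3 and ITGA5, which is 8.0%, beside 7.71% of 35116 RefSeq windows of the same length. AGGTCA occurred in 1 window, that of LAMA2, beside 13.8% of all windows, and TATAAA in 1 beside 11.5%. These are matches of letters in short windows and say nothing of binding.

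Linkers moved both ways. NID1, nidogen 1, which bridges laminin γ chains and collagen IV, fell from 433, 419, 427, 439 and 421 CPM to 219, 228, 237, 229 and 222 CPM. The groups lay far apart (1.89-fold lower, log2 -0.91, standard error 0.030, edgeR adjusted p = 4.09e-26). NID1 went from 48.7% to 31.5% of the per-kilobase sum of the 5 linkers, below DAG1 at 33.6% with RORA. NID2, its paralog, fell from 23.5 ± 2.26 to 15.8 ± 1.28 CPM (edgeR adjusted p = 1.88e-08). HSPG2, the heparan sulfate proteoglycan perlecan, rose from 59.1, 63.3, 68.4, 76.9 and 75.5 CPM to 99.98, 99.6, 112, 98.4 and 96.1 CPM. Its empty vector libraries were spread more widely than those of NID1, yet stayed below all overexpression libraries (1.47-fold, log2 0.56, edgeR adjusted p = 7.86e-12). DAG1, dystroglycan, rose from 253 ± 7.87 to 285 ± 7.13 CPM with no overlap (1.13-fold, edgeR adjusted p = 9.02e-06). AGRN, agrin, which binds dystroglycan, stood at 352 ± 17.5 and 375 ± 18.6 CPM with overlapping groups. Its call (log2 fold change 0.09, edgeR adjusted p = 0.0252) was lost in 8 of 19 alternatives: with DESeq2 (adjusted p = 0.0552), in the 3 limma fits on FPKM (adjusted p from 0.0574 to 0.0657), and without EV1 (edgeR adjusted p = 0.102), EV3 (0.0797), OE3 (0.110) or OE5 (0.0594).

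Among receptors, the laminin-binding α chains moved in opposite directions. ITGA3, whose pairing with ITGB1 binds the LAMA3 and LAMA5 laminins, was the most abundant integrin α chain, at 2267, 2265, 2310.1, 2474 and 2370.4 CPM with the empty vector and 1936, 1867, 2060.0, 1907 and 2001 CPM with RORA. All overexpression values lay below all empty vector values, by a small step (1.196-fold lower, log2 -0.26, edgeR adjusted p = 1.00e-10). ITGA6 (ENSG00000091409, chr2:172427354-172506282, plus strand), the laminin receptor chain of hemidesmosomes, rose from 60.8, 64.0, 62.8, 60.6 and 61.1 CPM to 121, 119.8, 120.4, 128 and 115 CPM. It had the largest rise of any integrin α chain here, with the groups far apart (1.96-fold, log2 0.97, standard error 0.0395, edgeR adjusted p = 5.90e-23). Per kilobase ITGA3 still exceeded it 25.2-fold ± 1.38 and 10.8-fold ± 0.695, or 43.5-fold and 18.6-fold with the longest coding transcript as the length and 47.2-fold and 20.2-fold in the deposited FPKM. ITGA7, the laminin receptor chain of muscle, was low at 1.76 ± 0.396 and 1.49 ± 0.328 CPM (edgeR adjusted p = 0.421).

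The collagen-binding α chains split more widely than any other receptor group. ITGA11 (ENSG00000137809, chr15:68296533-68432162, minus strand), a receptor for fibrillar collagen found on fibroblasts, fell from 16.8, 18.4, 18.0, 19.1 and 19.3 CPM to 5.15, 3.90, 3.01, 3.25 and 3.40 CPM. This was the largest change among the 32 genes, with no overlap and OE1 the highest of its group (4.84-fold lower, log2 -2.28, standard error 0.107, edgeR adjusted p = 6.10e-21). ITGA10, a collagen receptor chain of cartilage, fell from 8.09, 8.72, 9.82, 11.4 and 10.1 CPM to 4.42, 4.56, 3.99, 5.14 and 3.91 CPM, again with no overlap (2.18-fold lower, log2 -1.13, edgeR adjusted p = 8.31e-11). The summed fibroblast markers given above fell between the same groups, as did the sums of lens epithelial, epithelial and endothelial markers. Their part in these changes was not tested.

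ITGA2, a collagen and laminin receptor chain of epithelia and platelets, rose instead. It stood at 449.8, 472, 474, 423 and 455 CPM and at 702, 684, 629, 659.7 and 606 CPM, without overlap (1.44-fold, log2 0.53, edgeR adjusted p = 1.44e-16). ITGA1, a receptor chain for collagen IV, stood at 169.7 ± 8.86 and 174 ± 14.1 CPM with overlapping groups (log2 fold change 0.03, edgeR adjusted p = 0.512). ITGA2 was the most abundant of the 4 chains per kilobase in both groups, with 82.3% ± 0.487 and 88.9% ± 0.315 of their sum, and ITGA11 went from 2.42% ± 0.190 to 0.367% ± 0.0654.

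Of the α chains among the 32 genes that bind RGD motifs, ITGA5 rose and ITGAV fell. ITGA5, the fibronectin receptor chain, stood at 563, 546, 552, 589 and 574 CPM and at 676, 644, 702, 651 and 699 CPM, with no overlap (1.19-fold, log2 0.26, edgeR adjusted p = 1.07e-09). ITGAV, which pairs with several β chains to bind vitronectin and latent TGF-β, fell from 497 ± 25.8 to 384 ± 23.4 CPM (1.29-fold lower, adjusted p = 1.51e-11 by edgeR). By merged exons their sum per kilobase was 135 ± 0.956 and 136 ± 1.60, with a share of ITGA5 of 55.2% ± 2.04 and then 65.5% ± 2.21. The sum depended on the length used. By the longest coding transcript it was 198 ± 0.670 and 206 ± 3.36, and in the deposited FPKM 36.9 ± 0.628 and 42.4 ± 1.32. The share of ITGA5 in the deposited FPKM was 88.4% with the empty vector. Outside these groups, ITGA4, the chain that binds VCAM1 and a segment of fibronectin, fell from 30.9, 29.6, 31.6, 26.2 and 29.1 CPM to 22.03, 21.3, 19.8, 19.3 and 16.8 CPM. The groups did not overlap (1.48-fold lower, log2 -0.57, edgeR adjusted p = 3.62e-09). ITGAE, an E-cadherin receptor chain of tissue T cells, fell from 22.1 ± 0.884 to 19.1 ± 0.997 CPM (edgeR adjusted p = 0.00651). ITGA2B, which the naming rule did not cover, fell from 1.00 ± 0.218 to 0.526 ± 0.180 CPM with overlapping groups (edgeR adjusted p = 0.0134).

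**Figure D3:**
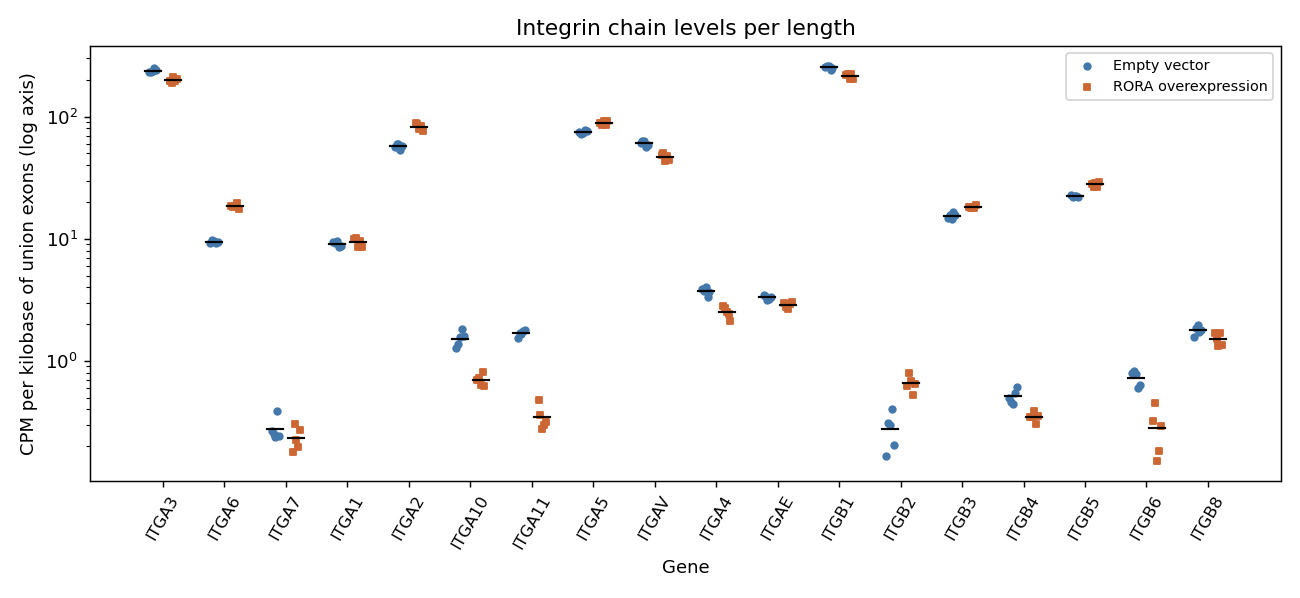
CPM per kilobase of merged exons, on a log axis, for 11 integrin α chain and 7 β chain genes, with a point per library and a bar at each group's mean. With this length ITGA3 and ITGB1 are the most abundant in both groups. ITGB5 passes ITGB1 with RORA only in the deposited FPKM, where the ITGB1 length is 18.6 times its merged exons. ITGA6 and ITGA2 rise, and ITGA10, ITGA11 and ITGB6 fall.

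All 7 β chains passed the test, 3 upward and 4 downward. ITGB1, the partner of most α chains above, stood at 1535, 1564, 1572, 1439 and 1503 CPM and at 1326, 1346, 1230.0, 1341 and 1234 CPM. It fell by a small step without overlap (1.18-fold lower, log2 -0.23, edgeR adjusted p = 4.75e-09) and made up 86.0% ± 0.625 and 81.5% ± 1.09 of all β chains per kilobase. In the authors' deposited FPKM, which divide by another length, its share was 43.4% and 35.5%. There ITGB5, at 37.9%, stood above ITGB1 with RORA. The FPKM length was 18.6 times the merged exons for ITGB1 but 2.26 times for ITGB5, so this order rests on those lengths. By the longest coding transcript ITGB1 held 83.8% and ITGB5 10.1% with RORA. ITGB4, the partner of ITGA6 in hemidesmosomes, fell from 3.46 ± 0.455 to 2.35 ± 0.203 CPM while ITGA6 rose (1.47-fold lower, log2 -0.55, edgeR adjusted p = 0.0044). Per kilobase ITGB1 exceeded ITGB4 503-fold ± 76.8 and 625-fold ± 77.4, and in the deposited FPKM 133-fold ± 20.3 and 165-fold ± 20.4.

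The partners of ITGAV did not move together. ITGB5 rose from 144 ± 2.05 to 180.2 ± 7.39 CPM (1.255-fold, edgeR adjusted p = 1.44e-10) and ITGB3, the vitronectin receptor chain also found on platelets, from 67.9 ± 3.61 to 79.9 ± 1.99 CPM (1.18-fold, edgeR adjusted p = 9.76e-06). ITGB6, the epithelial chain that helps activate TGF-β, fell from 3.75, 3.89, 3.63, 2.80 and 2.96 CPM to 1.51, 2.12, 0.711, 0.857 and 1.37 CPM. The groups did not overlap, but OE2 and OE3 differed 2.98-fold (2.54-fold lower, log2 -1.35, standard error 0.216, edgeR adjusted p = 1.35e-06). ITGB8, which also presents latent TGF-β, fell from 27.0 ± 2.36 to 23.0 ± 2.72 CPM with overlapping groups (edgeR adjusted p = 0.00501).

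ITGB2, the β chain of leukocyte integrins, rose from 1.14, 2.09, 2.01, 2.74 and 1.38 CPM to 4.20, 5.46, 4.65, 3.54 and 4.42 CPM. All overexpression libraries stood above all empty vector libraries (2.38-fold, log2 1.254, standard error 0.187, edgeR adjusted p = 3.64e-07). The level was low, 179 counts over 5 empty vector libraries, and its α partners ITGAL, ITGAM and ITGAX were not analysed here. Of 10 leukocyte markers, CD14 and CORO1A were analysed, and CD14 fell from 2.98 to 1.49 CPM while CORO1A, at 3.61 and 4.10 CPM, did not pass (edgeR adjusted p = 0.322).

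Genes around these receptors were read from lists chosen with earlier results of these data known. Of 19 other basement membrane genes, 6 rose and 10 fell, together 84.2% beside 56.1% of all genes. Their median log2 fold change was -0.46. FBLN2, fibulin 2, fell from 37.3 to 12.97 CPM, NTN4, a netrin that binds laminin γ chains, from 321 to 116.5 CPM, and COL18A1, the collagen that yields endostatin, from 400.2 to 165 CPM. COL4A1 and COL4A2, the collagen IV chains that nidogen ties to laminin, were chosen after their values were seen and fell by 0.78 and 0.46 on the log2 scale. Of the other collagen IV chains analysed, COL4A4 rose from 1.23 to 2.37 CPM and COL4A6 from 19.95 to 25.8 CPM, and COL4A5 did not pass at 65.9 and 61.7 CPM. Of 24 integrin ligands other than laminins and collagens, 7 rose and 11 fell, together 75.0% beside the same 56.1% (median -0.25). ICAM1, the ligand of leukocyte integrins, rose from 111 to 357 CPM and VCAM1, the ligand of ITGA4, from 0.687 to 1.71 CPM with overlapping groups, while POSTN, periostin, fell from 19.1 to 8.37 CPM. FN1, the ligand of ITGA5, was chosen after its values were seen and fell by 1.18 on the log2 scale.

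Of 11 tetraspanins and other membrane partners of integrins, 7 rose and 2 fell, together 81.8% beside 56.1% of all genes (median 0.37). SLC3A2, the CD98 heavy chain that binds β chain tails, rose from 185 to 352 CPM and PLAUR, the urokinase receptor, from 61.5 to 112 CPM, while CAV1, caveolin 1, fell from 286 to 159.6 CPM. Of 5 hemidesmosome genes, 2 rose and 2 fell, together 80.0% beside 56.1% of all genes. COL17A1, the transmembrane collagen of hemidesmosomes, rose from 4.89 to 12.9 CPM, and DST, whose epithelial form is a plaque protein, fell from 615 to 432.5 CPM, as did ERBIN, a partner of ITGB4, from 237 to 172 CPM. KRT5 and KRT14, the keratins of that plaque, were not analysed here.

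In the lists that follow the median size of change was smaller than in those above. Of 36 adaptors and kinases, 9 rose and 12 fell, together 58.3%, near the 56.1% of all genes. Their median was -0.03, and their median size of change was 0.19 beside 0.18 over all genes. LPXN, leupaxin, a paxillin relative, rose from 33.1 to 67.4 CPM and PTK2B, a kinase related to focal adhesion kinase, from 2.31 to 3.97 CPM, while FBLIM1, a filamin-binding adaptor, fell from 206 to 124 CPM. Of 9 genes that restrain or recycle integrins, 2 rose and 3 fell, together 55.6%, also near the share of all genes. RAB11FIP1, an endosome recycling factor, was at a log2 fold change of 0.40. DAB2, an endocytic adaptor, was at -0.18 and ITGB1BP1, a binder of the ITGB1 tail, at -0.17, both with overlapping groups. Of 11 partners of dystroglycan, 3 rose and 3 fell, together 54.5%, again near the share of all genes. DMD, dystrophin, rose from 24.2 to 37.8 CPM, and SGCB, a sarcoglycan, and UTRN, utrophin, fell by 0.37 and 0.20 on the log2 scale. Of 18 enzymes for the glycan through which dystroglycan binds laminin, 0 rose and 7 fell in edgeR. That is 38.9% in all, below the 56.1% of all genes for both directions together. The falls alone were 38.9% beside 27.5% of all genes, while 28.6% of all genes rose. The median log2 fold change of these enzymes was -0.14. At an unadjusted p of 0.05 or with DESeq2, 0 rose. LARGE2, B4GAT1 and POMT2 fell by 0.56, 0.32 and 0.25 on the log2 scale, LARGE2 with overlapping groups. Over all 129 genes of these lists 65.1% passed, beside 56.1% of all genes.

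**Figure D4:**
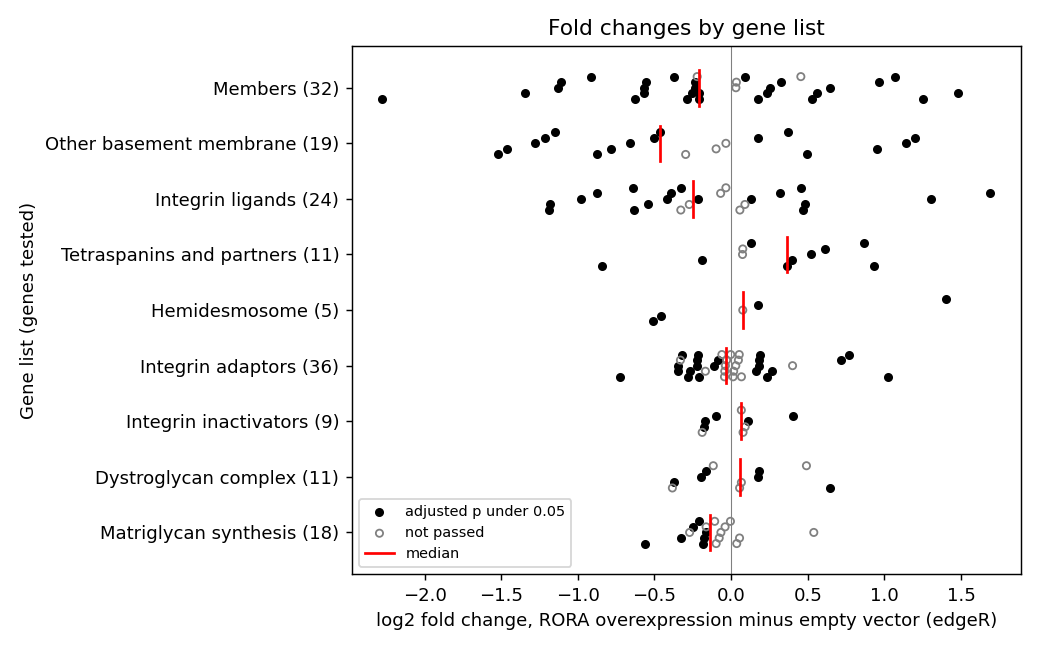
Log2 fold changes (RORA overexpression minus empty vector, edgeR) on the horizontal axis for the 32 genes and for 8 gene lists on the vertical axis, with filled points past an adjusted p of 0.05, open points not passed, and a red bar at each list's median. Integrins, laminins and linkers reach from -2.28 to 1.48, and matriglycan enzymes have no filled point above 0.

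Some of these genes share sequence with neighbours, and the labels name no step that marks the strand. Exons of ITGB3 overlap another annotated gene on the same strand over 51.6% of their length, those of ITGB6 over 20.6%, those of NID2 an opposite-strand gene, RTRAF, over 30.0%, those of HSPG2 LDLRAD2 over 11.7%, and those of LAMA1 an antisense gene over 10.3%. How far these overlaps changed the counts was not measured, so the single values of these genes are uncertain by an unknown amount. For the other genes no single overlap exceeded 6.41% of the exon length.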

How the data were processed

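The authors deposited raw read counts and FPKM per library for 12540 genes, per the file headers. Per the submitters' processing notes the tools were HISAT2 2.2.1 and HTSeq with GRCh38, while no source used here names the annotation release. The deposited FPKM used a length per gene that ranged from 1.38 to 18.6 times the merged exon length among the 32 genes, so levels between genes were computed from counts and merged exons of GENCODE 29. Gene IDs matched it for 12528 genes. No source used here says why it lists these genes.

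Counts were fitted for all genes with edgeR 4.0.16 in R 4.3.3 (filterByExpr with a count of at least 10 and a total of at least 15, TMM, glmQLFit, glmQLFTest, two-sided), which tested 12520 genes, with Benjamini-Hochberg adjustment and a threshold of 0.05. CPM used TMM-scaled totals. Members, lists and tests were chosen with earlier results of these data known. One gene that fits the names is not reported here. Every other member was named, with values per library for those past the threshold with a log2 change of at least 0.58 and for the most abundant gene of each role, and for HSPG2, chosen after its values were seen. From each list up to 3 genes past the threshold with the largest change were named. Alternatives were DESeq2 1.42.0, other scaling, no filter, the replicate number as a block, limma 3.58.1 on log2(FPKM + 1) or log2(FPKM + 0.1), and leaving out each library. Among 20 pairs of replicates the chi-square per degree of freedom ran from 2.28 to 5.73, so none were copies. With RORA it was 2.47 for OE2 and OE4 and 2.52 for OE3 and OE5, but 5.73 for OE2 and OE3. What set these libraries apart was not tested. No column of another sample was present.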

Additional observations from a re-analysis of the deposited data

Results flagged for a closer look

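Among 66 groups of 5 libraries (32 genes and RORA in both groups), 4 had a library set apart from the rest of its group by Dixon's test, and chance gives about 1 in 20. LAMA3 stood at 33.7 CPM in OE1, beside 29.5 to 30.6 CPM in the other overexpression libraries. HSPG2 stood at 112 CPM in OE3, beside 96.1 to 99.98 CPM. In EV4 LAMB2 stood at 255 CPM, beside 237 to 240.2 CPM in the other empty vector libraries, and ITGA7 at 2.46 CPM, beside 1.52 to 1.68 CPM. Leaving out OE1, OE3 or EV4 changed no call of these 4 genes.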

How the results depend on the processing

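Of the 32 genes, only AGRN changed its call under any of 19 alternatives, with an adjusted p between 0.00216 and 0.110. The count of genes that rose stayed between 9 and 12. The count that fell was 16 in each alternative except limma on genes averaging an FPKM of 1 or more, which gave 10, since fewer of the genes were tested. On log2(FPKM + 1) low genes gave smaller differences by construction, such as 0.31 for LAMA3, -0.62 for ITGA11 and 0.73 for RORA. Leaving out each library gave 11 to 12 rises and 16 falls among the 32 genes, 3393 to 3571 rises and 3270 to 3448 falls over all genes, and 1.37 to 1.51 for RORA. With the replicate number as a block, RORA stood at 1.46 and the counts were again 12 and 16. Correlations of same-numbered libraries, between -0.10 and 0.10, did not show pairing.

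Shares within a role, with the empty vector, of the gene leading by merged exon length depended on the length used. With the deposited FPKM they were 43.4% for ITGB1, 73.4% for ITGA2, 61.1% for LAMA5, 97.9% for ITGA3, 73.7% for LAMB3, 67.6% for NID1, 44.1% for ITGA4 and 88.4% for ITGA5. With the longest coding transcript, added after seeing the data, they were 88.0%, 74.9%, 43.3%, 97.7%, 60.2%, 42.0%, 55.1% and 64.3% in the same order. With the deposited FPKM ITGAE, at 55.9%, led in place of ITGA4. With RORA, LAMA1 led the laminin α chains at 43.9% by the longest coding transcript, where LAMA5 led by merged exons. Also with RORA, DAG1 led the linkers by merged exons at 33.6% and AGRN by the longest coding transcript at 34.1%. NID1 kept the lead there in the deposited FPKM at 50.4%. By merged exons ITGAE, at 53.4%, stood above ITGA4 with RORA.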
